A study of Pan troglodytes and Macaca mulatta with 12 samples.

Results

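Genes for 8 proteins of the B cell surface were followed in lymphoblastoid cell lines, that is, in B cells transformed so that they keep growing in culture, of chimpanzee and rhesus macaque. They were MS4A1 (CD20), CR2 (CD21), FCER2 (CD23), CD22, CD72, CD200, CD48 and SLAMF1 (CD150), taken from a list of 8 human Ensembl gene identifiers out of 16903 in the files. Each individual gave 1 RNA sequencing library, 6 of them chimpanzee (3 female, 3 male) and 6 rhesus macaque (2 female, 4 male). The labels give no age, treatment, genetic change or transforming virus for any line, and each individual is represented by 1 line grown in culture. P-values of the species tests therefore set the species difference against the spread between lines. This spread holds differences between individuals, between cultures and between library preparations.

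CD20 is a membrane protein that appears on maturing B cells and is lost on plasma cells. CD21 and CD23 belong together in textbook accounts. CD21 binds complement fragments, works as a co-receptor of the B cell receptor, and is the protein through which Epstein-Barr virus enters human B cells. CD23 is the low-affinity receptor for immunoglobulin E and is known in human cells as a marker raised by that virus. CD22 and CD72 are inhibitory co-receptors of the B cell receptor. CD200, CD48 and SLAMF1 are immunoglobulin-superfamily proteins that bind partners on other cells.

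Total counts ran from 1434241 to 4751954 in chimpanzee libraries and from 1801830 to 4600137 in rhesus macaque libraries. In chimpanzee replicate 1 and rhesus macaque replicates 5 and 6, the genes of chromosome 19 lay below their species mean, with median log2 deviations of -0.66, -0.24 and -0.25. FCER2 and CD22 lie on that chromosome. Levels are given as CPM, counts per 1000000 after scaling of the library totals by the TMM method. MS4A1, a defining marker of B cells, was read in all 12 libraries, at 46.9 CPM or more. Other members were much lower in some lines. CD22 fell to 0.610 CPM in rhesus macaque replicate 1, and CR2 and FCER2 had 7 and 3 reads over all rhesus macaque lines.

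Of the 8 genes, 7 had enough counts for the species test. The test called 4 of them higher in chimpanzee, MS4A1, CR2, CD22 and SLAMF1, and 0 lower (edgeR quasi-likelihood test, Benjamini-Hochberg adjusted p under 0.05 over 9440 genes). One of the 4, CR2, met the count filter in its chimpanzee libraries alone, so its call had little room for another outcome. In the same test 24.7% of all genes were higher in chimpanzee and 23.6% were lower, 48.3% together. The members' median log2 fold change was 2.20 over these 7 genes, which is the value of MS4A1, against 0.04 over all tested genes. The median absolute log2 fold change was 2.20 over these 7 genes and 0.71 over all tested genes. FCER2 fell short of the count filter and was set apart. In bulk RNA, fewer cells with a transcript and less transcript per cell cannot be told apart.

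**Figure D1:**
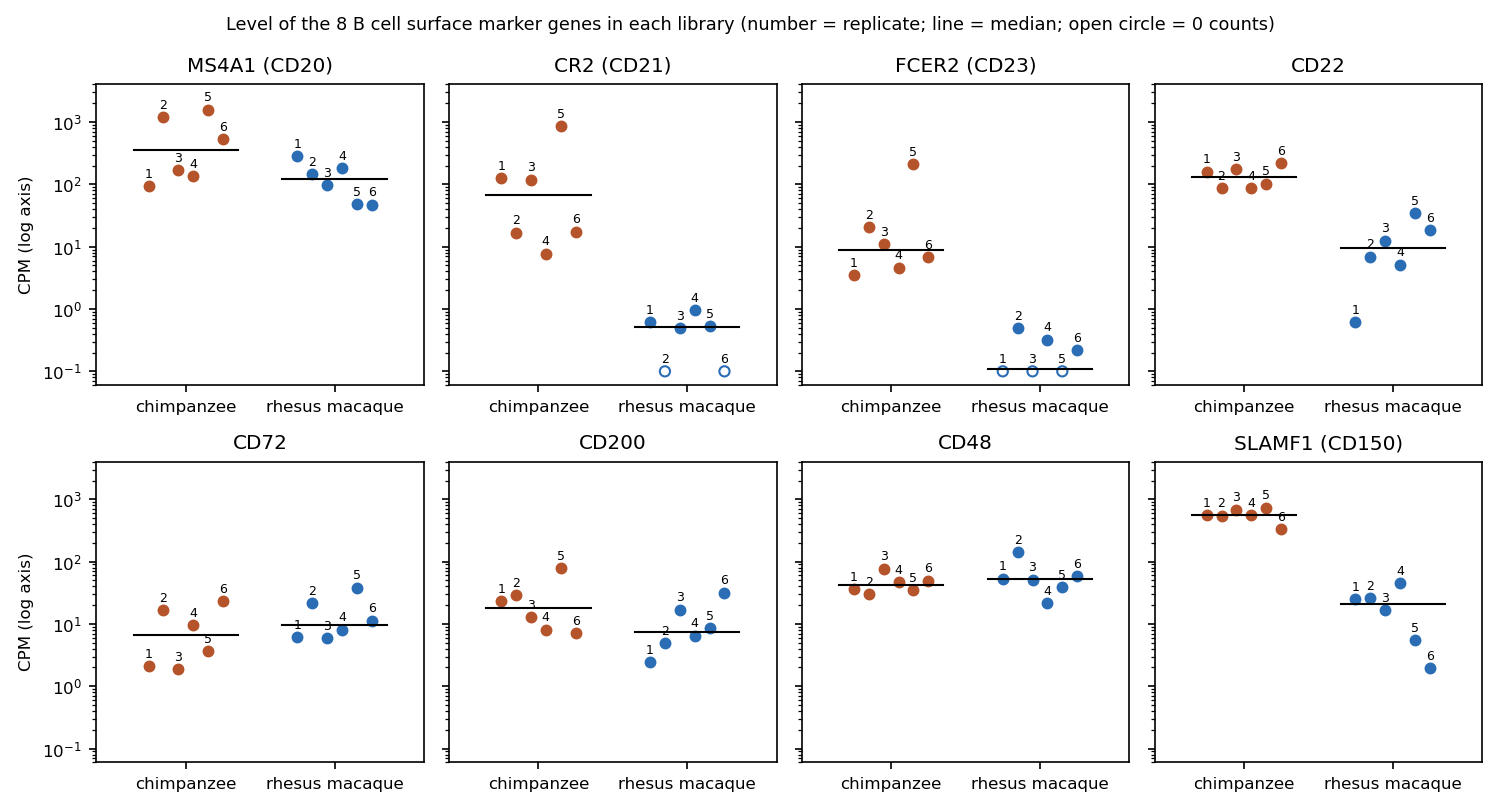
Level of each gene in each library, as CPM on a log axis, with chimpanzee libraries on the left and rhesus macaque libraries on the right of each panel; numbers are replicates, lines are medians and open circles are libraries with 0 counts, drawn at the foot of the axis. Points of the 2 species do not overlap for CR2, FCER2, CD22 and SLAMF1, and they overlap for the other genes.

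The complement receptor CR2 (ENSG00000117322) showed the widest gap. Its 16 counted exons lie on chromosome 1 from 205694293 to 205729859, in the coordinates of the files (build not given in the sources used here). CR2 ran from 7.71 through a median of 68.4 to 850 CPM in chimpanzee lines, and from 0 through a median of 0.513 to 0.970 CPM in rhesus macaque lines. In counts this was 2754 reads in chimpanzee against 7 reads in rhesus macaque, where replicates 2 and 6 had none. A count of 0 in these 2 libraries allows up to 1.48 and 0.649 CPM at 3 counts, counting error only.

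Every chimpanzee line stood above every rhesus macaque line for CR2, and 27.1% of all tested genes separated the species in this way in one or the other direction. The log2 fold change was 8.69 (SE 1.40, edgeR adjusted p = 0.000186). CR2 passed the count filter through its chimpanzee libraries, so the test had little room for another outcome. Pooled reads gave a chimpanzee level 404 times that of rhesus macaque, with an exact 95% interval of 196 to 1007 for counting error. Chimpanzee replicate 5 alone held 2107 of the chimpanzee reads. Without it the log2 fold change was 6.93, and the pooled ratio was 112 with an interval of 53.8 to 279.

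The reads of CR2 were spread over the gene in chimpanzee. All 16 exons were counted there, from 31 reads on exon 10 to 508 reads on exon 5. Exons 6 and 10 are both 177 bases long and had 138 and 31 reads. In rhesus macaque the 7 reads fell on exons 4, 5, 13 and 16, with 4 of them on exon 16. No rhesus macaque library had a read on the other 12. Reads that CR2 may share with a similar complement receptor gene were not tested.

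FCER2 (ENSG00000104921) followed the same pattern at lower counts. Its 4 counted exons on chromosome 19, from 7667899 to 7672997, cover 330 bases. FCER2 ran from 3.49 through a median of 8.88 to 209 CPM in chimpanzee lines, and from 0 through a median of 0.108 to 0.494 CPM in rhesus macaque lines. Chimpanzee lines held 648 reads, 517 of them in replicate 5, and rhesus macaque lines held 3 reads, 1 each in replicates 2, 4 and 6. Rhesus macaque replicates 1, 3 and 5 had 0 reads, which allows up to 1.83 CPM in replicate 1 and 0.793 CPM in replicate 5 at 3 counts.

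All 6 chimpanzee lines lay above all 6 rhesus macaque lines for FCER2. The mean of log2(CPM + 0.5) was 3.81 in chimpanzee and -0.63 in rhesus macaque (two-sided exact permutation test over 6 and 6 lines, p = 0.00216, the smallest that 924 splits can give, which groups that do not overlap always reach here). A fit with no filter on low counts put the log2 fold change at 7.60 (edgeR adjusted p = 0.000292). The pooled ratio was 222 with an exact 95% counting interval of 75.6 to 1080. Without chimpanzee replicate 5 it was 52.7, with an interval of 17.6 to 259. The part that exon matching between species may have in these low rhesus macaque counts was not tested.

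MS4A1 (ENSG00000156738), the gene of CD20, was abundant in both species and varied widely among chimpanzee lines. It has 7 counted exons on chromosome 11 from 59979858 to 59994801. MS4A1 ran from 92.8 through a median of 349 to 1575 CPM in chimpanzee lines, and from 46.9 through a median of 122 to 286 CPM in rhesus macaque lines. Chimpanzee replicates 5, 2 and 6 were high, at 1575, 1193 and 531 CPM. The other chimpanzee lines, at 168, 136 and 92.8 CPM in replicates 3, 4 and 1, lay within the rhesus macaque range.

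The species difference of MS4A1 was 2.20 on the log2 scale (SE 0.70, edgeR adjusted p = 0.0182). It did not pass the test for more than 2-fold (edgeR glmTreat adjusted p = 0.0992), which 17.3% of all genes passed, 8.77% of all genes as higher in chimpanzee. The call came close to the threshold without chimpanzee replicate 5, at a log2 fold change of 1.67 (edgeR adjusted p = 0.0495). Among chimpanzee lines the SD of log2 CPM was 1.72 for MS4A1, 174th of 9440 genes, and among rhesus macaque lines it was 1.05. The median gene had 0.48 in chimpanzee and 0.45 in rhesus macaque.

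Of the inhibitory co-receptors, CD22 (ENSG00000012124) was higher in chimpanzee. This sialic-acid-binding receptor has 8 counted exons on chromosome 19 from 40511919 to 40528463. CD22 ran from 85.9 through a median of 131 to 220 CPM in chimpanzee lines, and from 0.610 through a median of 9.69 to 34.3 CPM in rhesus macaque lines. The species did not overlap, and the log2 fold change was 3.36 (SE 0.57, edgeR adjusted p = 0.000269). It also passed the test for more than 2-fold (edgeR glmTreat adjusted p = 0.00163). Without chimpanzee replicate 1 and rhesus macaque replicates 5 and 6, the libraries with low chromosome 19 deviations, the log2 fold change was 4.38 (edgeR adjusted p = 0.000199). Rhesus macaque replicates 5 and 6 had the highest CD22 levels of their species, 34.3 and 18.6 CPM. Leaving them out lowers the rhesus macaque mean, so the larger value says nothing about library quality.

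Rhesus macaque lines differed more from each other in CD22 than chimpanzee lines did, with SDs of log2 CPM of 0.57 in chimpanzee and 1.64 in rhesus macaque; the difference between these SDs was not tested. Rhesus macaque replicate 1 had a single CD22 read, 0.610 CPM, while replicates 5 and 6 had 34.3 and 18.6 CPM. Reads fell on all 8 exons in chimpanzee. In rhesus macaque they fell on 7 of the 8, the exception being exon 1, a 55-base exon with 11 reads in chimpanzee. CD22 had 2505 reads over all chimpanzee lines and 272 over all rhesus macaque lines, too few to compare this exon between the species.

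CD72 (ENSG00000137101), a C-type lectin with an inhibitory tail, did not pass the test. Its 6 counted exons lie on chromosome 9 from 35599530 to 35608808. CD72 ran from 1.88 through a median of 6.63 to 23.0 CPM in chimpanzee lines, and from 5.98 through a median of 9.66 to 38.3 CPM in rhesus macaque lines. These ranges overlapped over most of their length. The log2 fold change was -0.65 with a 95% interval of -2.02 to 0.71 (edgeR adjusted p = 0.420), which leaves room for a difference of more than 2-fold towards rhesus macaque.

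Exon 1 of CD72, at the low end of its coordinates and 768 bases long, overlaps an exon of a neighbouring gene. Library steps in the labels mark no strand, so the 64 chimpanzee and 134 rhesus macaque reads on that exon cannot be assigned to one gene. The neighbour, on chromosome 9 from 35595281 to 35600037, had mean levels of 58.7 CPM (chimpanzee) and 117 CPM (rhesus macaque; log2 fold change -0.98, edgeR adjusted p = 0.0254). With overlapping exons left out, an alternative added later, the log2 fold change of CD72 was -0.27 (edgeR adjusted p = 0.754).

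Among the genes whose proteins meet partners on other cells, SLAMF1 (ENSG00000117090) was much higher in chimpanzee. SLAMF1 is a self-binding receptor of lymphocytes and an entry receptor of measles virus in humans. Its 5 counted exons lie on chromosome 1 from 158846513 to 158873943. SLAMF1 ran from 329 through a median of 556 to 734 CPM in chimpanzee lines, and from 1.95 through a median of 20.7 to 45.6 CPM in rhesus macaque lines. The lowest chimpanzee line was thus well above the highest rhesus macaque line.

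The log2 fold change of SLAMF1 was 4.84 (SE 0.58, edgeR adjusted p = 1.52e-05), and the test for more than 2-fold was passed (edgeR glmTreat adjusted p = 4.81e-05). Chimpanzee lines were close to each other, with a highest-to-lowest ratio of 2.23, while rhesus macaque lines spanned 23.4-fold. Rhesus macaque replicates 5 and 6 were the low ones, at 5.55 and 1.95 CPM. With these and chimpanzee replicate 1 left out, the log2 fold change was 4.31 (edgeR adjusted p = 1.95e-05). All 5 exons had more reads in chimpanzee, from 284 against 13 on exon 3 to 2987 against 88 on exon 1.

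CD48 (ENSG00000117091) lies 74.2 kb from SLAMF1 on chromosome 1, with no other tested gene between them. It encodes a lipid-anchored ligand of CD2 and CD244 and was counted on a single exon of 122 bases, from 158948096 to 158948217. CD48 ran from 29.9 through a median of 41.4 to 76.9 CPM in chimpanzee lines, and from 21.3 through a median of 52.2 to 141 CPM in rhesus macaque lines. The ranges overlapped, and the log2 fold change was -0.41, with -1.22 to 0.41 as its 95% interval (edgeR adjusted p = 0.399). Without rhesus macaque replicate 2 the log2 fold change was 0.01 (edgeR adjusted p = 0.987).

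The tested genes on both sides of this pair were also read in both species. The gene 30.6 kb before SLAMF1, from 158782419 to 158815918, averaged 97.5 CPM in chimpanzee lines and 5.76 CPM in rhesus macaque lines (log2 fold change 4.1, edgeR adjusted p = 0.000112). The gene 27.5 kb after CD48, from 158975701 to 158987862, averaged 87.2 CPM in chimpanzee lines and 27.8 CPM in rhesus macaque lines (log2 fold change 1.65, edgeR adjusted p = 0.0396). CD48 was the one gene of these 4 neighbours that was not called. The files do not pair these identifiers with symbols.

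CD200 (ENSG00000091972), a ligand of an inhibitory receptor on myeloid cells, did not pass either. It has 6 counted exons on chromosome 3 from 113537480 to 113564346. CD200 ran from 7.07 through a median of 17.9 to 77.9 CPM in chimpanzee lines, and from 2.44 through a median of 7.46 to 31.6 CPM in rhesus macaque lines. The 2 species overlapped. The log2 fold change was 1.12 with a 95% interval of -0.29 to 2.53 (edgeR adjusted p = 0.174). It was 0.38 without chimpanzee replicate 5 (edgeR adjusted p = 0.620) and 1.72 without rhesus macaque replicate 6, where the gene passed (edgeR adjusted p = 0.0456).

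**Figure D2:**
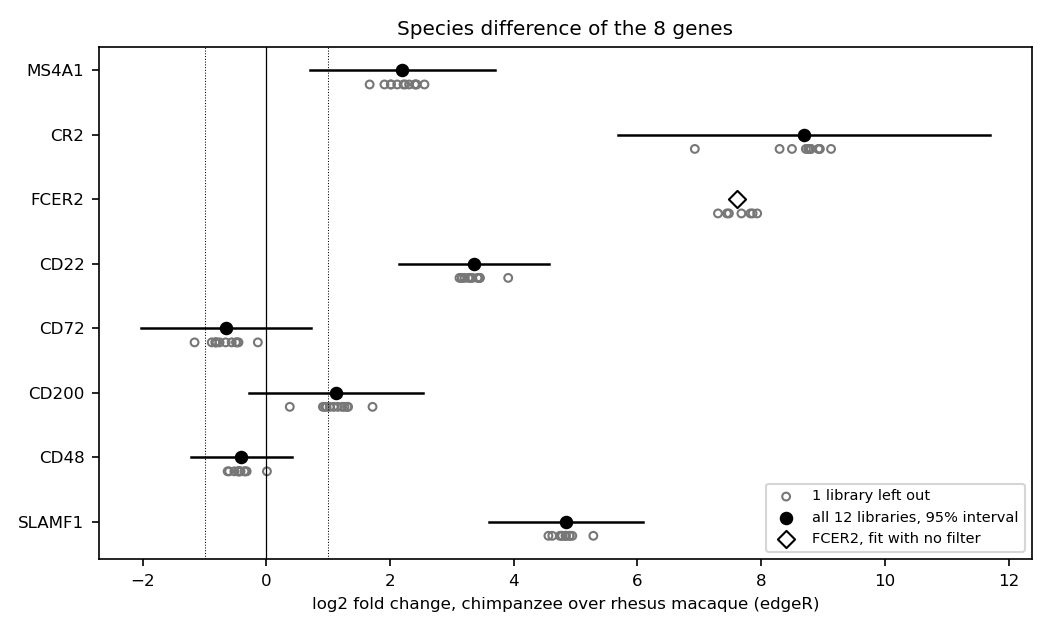
Species difference of each gene as the log2 fold change of chimpanzee over rhesus macaque, with black points and 95% intervals from the fit of all 12 libraries, grey circles for fits with 1 library left out, and a diamond for FCER2 from the fit with no filter on low counts. Solid and dotted vertical lines mark no difference and a 2-fold difference. Intervals of MS4A1, CR2, CD22 and SLAMF1 lie above 0, and those of CD72, CD200 and CD48 include it.

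Genes next to the other members gave a mixed picture. Before MS4A1, 646 kb away, a gene was higher in chimpanzee, at 141 CPM against 88.0 CPM in rhesus macaque (log2 fold change 0.68, edgeR adjusted p = 0.00280). After MS4A1, 293 kb away on chromosome 11 from 60287748 to 60300780, the next tested gene averaged 27.2 CPM in chimpanzee lines and 0.206 CPM in rhesus macaque lines (log2 fold change 6.64, edgeR adjusted p = 1.15e-05). Before CR2, at 93.4 kb, the level was 29.5 CPM in chimpanzee lines against 21.2 CPM in rhesus macaque lines and the gene did not pass (edgeR adjusted p = 0.422). The one 277 kb after CR2 was higher in chimpanzee, at 140 CPM against 29.7 CPM in rhesus macaque (edgeR adjusted p = 0.000213). Neither tested neighbour of FCER2 passed (edgeR adjusted p = 0.630 and 0.341). After CD22, 191 kb away, a gene was lower in chimpanzee, at 4.06 CPM against 26.0 CPM in rhesus macaque (log2 fold change -2.65, edgeR adjusted p = 1.30e-05). The nearer neighbour, 49.4 kb before CD22, had a log2 fold change of -0.39 and did not pass (edgeR adjusted p = 0.210). Before CD200, 203 kb away, a gene was higher in chimpanzee, at 293 CPM against 30.1 CPM in rhesus macaque (log2 fold change 3.29, edgeR adjusted p = 2.77e-05). The nearer one, 107 kb after CD200, had a log2 fold change of -1.67 and did not pass (edgeR adjusted p = 0.0573). After CD72, 30.5 kb away, a gene was lower in chimpanzee, at 32.7 CPM against 136 CPM in rhesus macaque (edgeR adjusted p = 0.0351), and the gene 48.4 kb before CD72 did not pass (edgeR adjusted p = 0.136).

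Exons could be compared apart from the level of each gene. Of the 7 members with at least 2 tested exons, 0 were called for exon use between the species by edgeR diffSpliceDGE with the Simes method, which called 4.27% of all 9970 genes and 0.852% of all exons. Its gene-level F test also called 0 members, against 16.8% of all genes, and 0 members had an unadjusted Simes p under 0.05. A missing call does not show equal use. The smallest unadjusted exon p among the members was 0.0838, for exon 1 of MS4A1, which took 1.42% ± 1.01 of the gene's reads in chimpanzee lines and 4.61% ± 1.53 in rhesus macaque lines (SD, n = 6 each, edgeR exon adjusted p = 0.621). With 7 and 3 reads in rhesus macaque, a difference in exon use was not detectable for CR2 and FCER2.

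**Figure D3:**
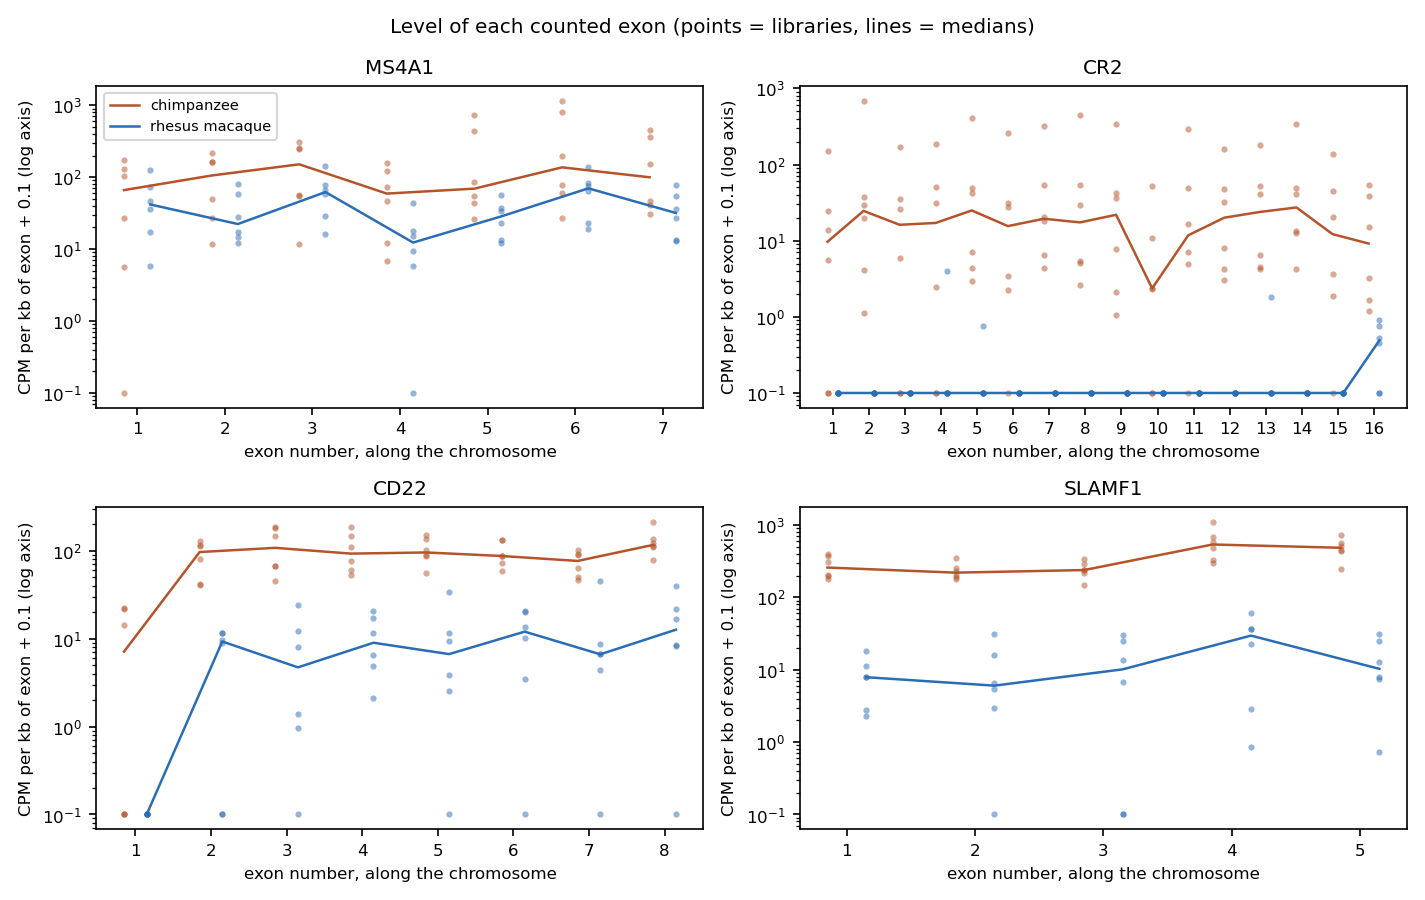
Level of each counted exon of MS4A1, CR2, CD22 and SLAMF1, as CPM per kb of exon plus 0.1 on a log axis, against the exon number along the chromosome; points are libraries and lines are medians for chimpanzee and rhesus macaque. In CR2, CD22 and SLAMF1 the chimpanzee median is above the rhesus macaque median at every exon, and rhesus macaque reads of CR2 are few and lie mainly on exon 16.

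Within a species, the ratio of 2 exons of MS4A1 and of SLAMF1 took different values from line to line. The exon pairs were picked after their values were seen and no test was made. The intervals cover counting error only, and each line has 1 library, so differences between lines and between library preparations cannot be told apart. In MS4A1, exon 5 had 433 and exon 2 had 189 reads in chimpanzee replicate 5, a ratio of 2.29 (exact 95% interval 1.93 to 2.73, counting error). In chimpanzee replicate 6 they had 102 and 289 reads, a ratio of 0.353 (interval 0.279 to 0.444). Both lines had a high level of the gene.

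For SLAMF1 the ratio of exon 4 to exon 1 was 2.17 in chimpanzee replicate 5 (interval 1.91 to 2.46) and 0.307 in chimpanzee replicate 1 (interval 0.249 to 0.376). The other chimpanzee lines lay from 0.639 to 1.42. In rhesus macaque the 2 lowest ratios were 0.143 in replicate 6 (interval 0.003 to 1.11) and 0.429 in replicate 5 (interval 0.07 to 1.88), on 8 and 10 reads. Both intervals overlapped those of every other rhesus macaque line. Chimpanzee replicate 1 and rhesus macaque replicates 6 and 5 are also the libraries with chromosome 19 deviations of -0.66, -0.25 and -0.24. Their MS4A1 ratios, 1.5, 0.54 and 0.75, were not the lowest of their species. The part of library quality in these ratios was not tested.

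**Figure D4:**
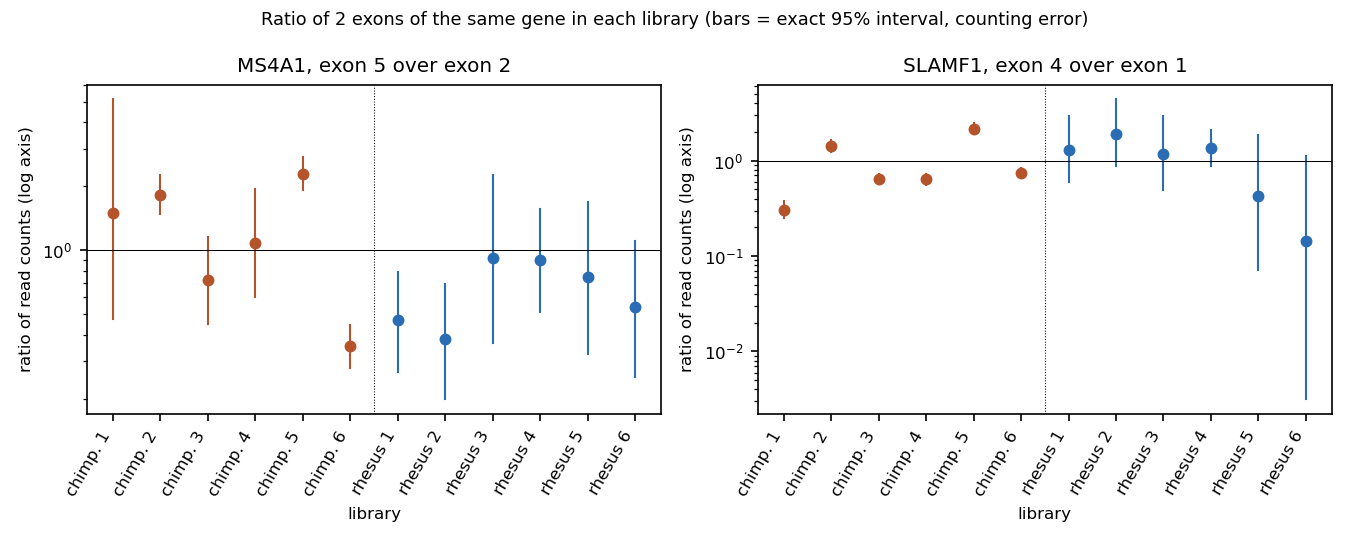
Ratio of the read counts of 2 exons of the same gene in each library on a log axis, chimpanzee replicates on the left and rhesus macaque replicates on the right of each panel, with exact 95% intervals for counting error. For MS4A1 the chimpanzee ratios run from 0.353 to 2.29 and for SLAMF1 from 0.307 to 2.17, while most rhesus macaque intervals are wide.

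Per length, the order of the genes differed between the species as far as their means go. Levels were divided by the kb of counted exons, as CPM per kb. In chimpanzee SLAMF1 and CD48 led with 380 ± 93.9 and 374 ± 139, followed by MS4A1 with 176 ± 179, FCER2 with 129 ± 247, CD22 with 102 ± 40.5 and CR2 with 53.0 ± 91.9 (mean ± SD, n = 6). CD200 and CD72 closed the order with 12.03 ± 12.2 and 6.98 ± 6.42. In rhesus macaque CD48 led with 499 ± 341, followed by MS4A1 with 38.4 ± 26.1, SLAMF1 with 13.4 ± 10.6, CD72 with 11.2 ± 9.35, CD22 with 9.64 ± 9.0 and CD200 with 5.39 ± 4.97. FCER2 and CR2 came last with 0.522 ± 0.631 and 0.122 ± 0.105.

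Neighbours in these orders were compared within libraries. None of the 14 neighbour pairs passed after adjustment (exact sign-flip permutation test, two-sided, lowest adjusted p = 0.146, with 0.0313 the smallest unadjusted p that 6 lines can give). At that smallest p, CD48 exceeded MS4A1, MS4A1 exceeded SLAMF1 and CD200 exceeded FCER2 in 6 of 6 rhesus macaque lines, by 3.74, 1.71 and 2.37 on the log2 scale. Even these pairs did not pass, so with 6 lines a few such pairs cannot pass the adjustment over 14. The missing calls therefore do not show equal levels. Both orders were taken from the means of the same libraries. In chimpanzee, FCER2 was above CD22 by its mean, but in 1 of 6 lines; without replicate 5 the mean of FCER2 was 28.1 and that of CR2 was 16.03 CPM per kb. CD48 and FCER2 were counted over 122 and 330 bases, which makes their levels per kb less certain than those of longer genes.

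Lines that were high for one marker were not high for all. Chimpanzee replicate 5 had the highest level of MS4A1, CR2, FCER2, CD200 and SLAMF1 among chimpanzee lines, at 1575, 850, 209, 77.9 and 734 CPM. The same line was below the chimpanzee mean for CD22, CD72 and CD48, with log2 deviations of -0.33, -0.72 and -0.32. Chimpanzee replicate 2, second for MS4A1 and FCER2, had 16.8 CPM of CR2, next to the lowest. Chimpanzee replicate 4 had the lowest CR2 level, 7.71 CPM, and chimpanzee replicate 1 the lowest MS4A1 and FCER2 levels, 92.8 and 3.49 CPM.

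**Figure D5:**
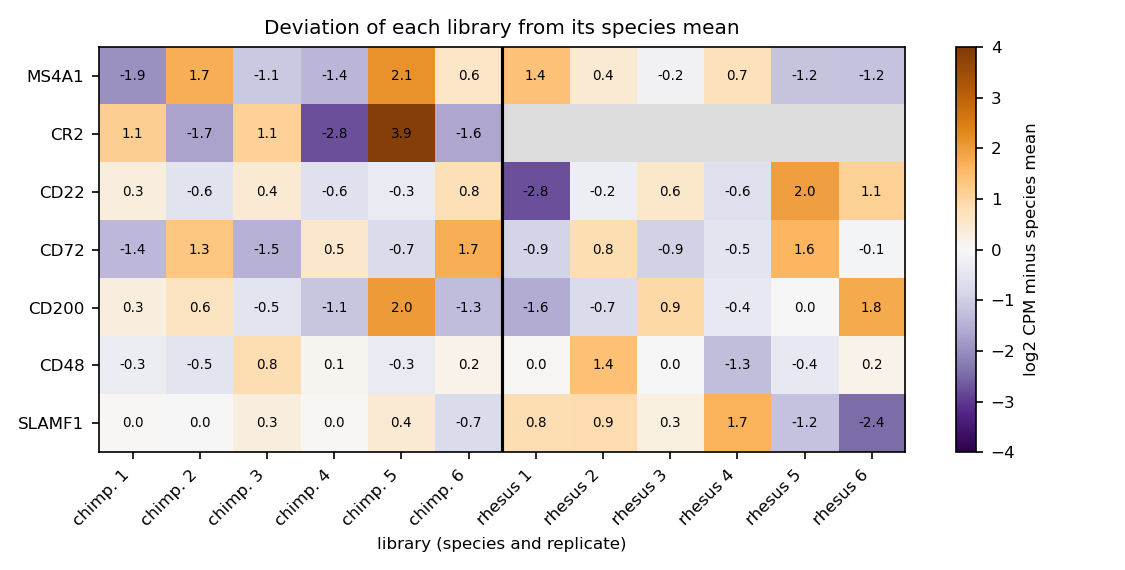
Deviation of each library from the mean of its species in log2 CPM for the 7 tested genes, with chimpanzee libraries left of rhesus macaque libraries; the rhesus macaque cells of CR2 are blank because of 7 reads in all. Chimpanzee replicate 5 deviates by 3.90 for CR2 and 2.13 for MS4A1, and rhesus macaque replicate 1 by -2.77 for CD22.

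Relations between members were computed within each species over 6 lines, for 28 pairs in chimpanzee and 15 in rhesus macaque, where CR2 and FCER2 had too few reads. None of the 43 passed after adjustment, and 4 had an unadjusted p under 0.05 (exact permutation test, two-sided, Pearson). With 6 lines, a lone pair could not pass the adjustment over 43 pairs even at the smallest p that the permutations can give. The missing calls therefore do not show that members are unrelated. In chimpanzee, MS4A1 and FCER2 had a Pearson r of 0.814 (exact permutation p = 0.0153, adjusted p = 0.319) and a Spearman rho of 0.943 (exact permutation p = 0.0167, adjusted p = 0.358). Without the 2 lines farthest from the MS4A1 median r was 0.470 over the 4 others, with no test of the change.

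In rhesus macaque, the pair with the smallest p was MS4A1 and CD22, with a Pearson r of -0.942 (exact permutation p = 0.00278, adjusted p = 0.119) and a Spearman rho of -0.943 (exact permutation p = 0.0167, adjusted p = 0.358). Rhesus macaque replicate 1 had the most MS4A1 and the least CD22, at 286 and 0.610 CPM, while replicate 5 had 47.8 and 34.3 CPM. Without the 2 lines farthest from the MS4A1 median, replicates 5 and 6, r was -0.965. The lines left still held replicate 1 with its 0.610 CPM of CD22, so this value does not show what r is without that line. In chimpanzee the same pair had r = -0.300 (exact permutation p = 0.556, adjusted p = 0.826), and a difference between the species was not tested.

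Genes most like 3 of the members were sought among all tested genes, by Pearson r of log2 CPM after subtraction of species means, over 12 libraries that share their scaling. For MS4A1 the closest was on chromosome 12, with 3 counted exons, from 14833152 to 14847668 (r = 0.966), and the next one lay on chromosome 10 from 5126583 to 5137869 (r = 0.960). For CR2 the closest lay on chromosome 14 from 74034642 to 74140161 (r = 0.875) and on chromosome 9 from 33912410 to 34038947 (r = 0.845). For FCER2 they lay on chromosome 2 from 220111922 to 220116682 (r = 0.944) and on chromosome 17 from 77394323 to 77411833 (r = 0.931). These are the highest of 9440 values and are given as a description.

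Other members were less like these 3 genes. The member most like FCER2 was MS4A1 (r = 0.698, 344th of the tested genes). For CR2 it was FCER2, which is outside the ranking, and among tested members CD200 (r = 0.487, 449th). For CR2 and FCER2 the values rest on the chimpanzee lines, since rhesus macaque lines held 7 and 3 reads.

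The sexes were set side by side within each species. Chimpanzee females and males did not overlap for CD200 and CD48, 2 of 7 tested members, where 12.2% of all genes did not overlap. CD200 ran from 7.07 to 12.8 CPM in the 3 females and from 23.0 to 77.9 CPM in the 3 males. CD48 ran from 46.6 to 76.9 CPM in females and from 29.9 to 36.3 CPM in males. In rhesus macaque CD48 alone did not overlap, at 21.3 and 39.4 CPM in the 2 females and from 51.3 to 141 CPM in the 4 males, where 8.26% of all genes did not overlap.

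None of the 7 tested members passed for sex in either species (edgeR quasi-likelihood test, lowest adjusted p = 0.531 for CD200 in chimpanzee). Over all 9440 genes 0% passed in either species. Unadjusted p-values under 0.05 were found for 663 genes in chimpanzee and 208 in rhesus macaque, among them CR2 and CD200 in chimpanzee and CD48 in rhesus macaque. The values of CR2 and CD200 depended on chimpanzee replicate 5, a male. Without it the unadjusted p was 0.620 for CR2 and 0.0892 for CD200 (edgeR quasi-likelihood test). The CR2 value also rose above 0.05 in the same test without a female line, to 0.0938 without chimpanzee replicate 4 and 0.103 without chimpanzee replicate 6.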

How the data were processed

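Raw counts per exon were deposited by the authors, 1 file per library, as whole numbers for exons with at least 1 count; an absent exon was taken as 0. The sources used here name no aligner, counting tool or genome build, nor how exons were matched across species. Per the series' design text, each library comes from 1 individual; human lines named there were not analysed here. No identifier of 16903 matched a name table; the 8 symbols come with the gene list, other genes are given by position, and the fixed lists of other surface genes and cell type markers could not be run. Members and lists were chosen with earlier results of these data known. All 8 members are named, with their nearest tested neighbours and the 2 genes most like MS4A1, CR2 and FCER2.

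Exon counts were summed per gene and tested with edgeR 4.0.16 (limma 3.58.1, R 4.3.3) by the quasi-likelihood test with TMM and species as the term, after filterByExpr (minimum count 10, minimum total 15, 6 libraries). P-values were adjusted by Benjamini-Hochberg over all genes at 0.05. More than 2-fold was tested with glmTreat, exon use with diffSpliceDGE (exons of 10 counts or more), sex in a fit of 4 groups. Log2 CPM used a prior count of 2. Exact tests ran in Python 3.11.15. DESeq2 1.42.0 and limma-voom were alternatives. Reads carry no molecular identifiers, so intervals and floors cover counting error only.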

Additional observations from a re-analysis of the deposited data

Results flagged for a closer look

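Among the 16 sets of 6 libraries (8 genes in 2 species), 4 had a library far from the rest, with a gap to the nearest library that exceeded Dixon's 95% critical share of the range on the CPM scale. Chance gives about 1 set in 20 for normally distributed values, and CPM are right-skewed. On log2 CPM none of these 4 exceeded that share. There 1 set did, SLAMF1 in chimpanzee, where replicate 6 was low at 329 CPM. Of the 4, 3 were chimpanzee replicate 5. It had 850 CPM of CR2, with the next line at 125 CPM, 209 CPM of FCER2, with the next at 20.5 CPM, and 77.9 CPM of CD200, with the next at 29.1 CPM. Its total of 2488153 counts and its chromosome 19 deviation of 0.20 were inside the range of the other chimpanzee lines. The fourth was rhesus macaque replicate 2, with 141 CPM of CD48 and the next line at 58.6 CPM.

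For CD48 the means of the sexes had opposite orders in the 2 species, and no sex difference passed in either. CD48 was picked because its sexes did not overlap in either species and lay in opposite orders. The size, sign and p-value of the difference below come from the same values that picked it, so they lend it no support. It averaged 57.6 CPM in chimpanzee females and 33.6 CPM in chimpanzee males, and 30.3 CPM in rhesus macaque females and 76.1 CPM in rhesus macaque males. The female-to-male log2 ratio in chimpanzee minus that in rhesus macaque was 2.10 with a standard error of 0.64 (edgeR unadjusted p = 0.00616, adjusted p = 0.918), and it did not pass the correction. It lay between 1.61 and 2.61 with each library left out in turn, and its adjusted p between 0.426 and 1.0. Over all genes 0 passed and 489 had an unadjusted p under 0.05. The gene rests on 1 exon of 122 bases, and the comparison has 3 females and 3 males in chimpanzee and 2 females and 4 males in rhesus macaque.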

How the results depend on the processing

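The species difference was refitted under 26 alternatives: other normalisations and filters, DESeq2, limma-voom, other sets of exons, thinned libraries, sex as a term, males only, and libraries left out. MS4A1, CD22 and SLAMF1 kept their direction and their call in all 26 and CR2 in the 25 where it was tested. On the log2 scale their values ran from 1.67 to 2.74 for MS4A1, from 6.74 to 10.34 for CR2, from 3.09 to 4.38 for CD22 and from 4.31 to 5.62 for SLAMF1. FCER2 was tested in 11, from 7.30 to 7.94, and called in 10; DESeq2 gave no adjusted p. Where a filter was set, CR2 and FCER2 passed it through their chimpanzee libraries, so the calls of these genes are no sign of stability. CD72 and CD48 were called in none, and their signs turned once each, to 0.08 for CD72 with chimpanzee replicate 1 and rhesus macaque replicates 5 and 6 left out and to 0.01 for CD48 without rhesus macaque replicate 2. CD200 ran from 0.38 to 1.72 with 1 library left out and was called without rhesus macaque replicate 6. The number of members called ran from 3, on exons read in at least 3 libraries of each species, where CR2 was not tested, to 6. MS4A1 passed the test for more than 2-fold in none of 24 alternatives. No member was called for exon use in 16 alternatives. Depth limits CR2 and FCER2 in rhesus macaque, with 7 and 3 reads. No paired analysis was possible, because the lines of the 2 species come from different individuals and their replicate numbers do not link them.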
